A study of Mus musculus with 18 samples.

Results

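Nascent RNA of S3 erythroblasts, the most mature of the sorted erythroid populations of mouse fetal liver, was compared with that of S0-Low cells, the least mature, gene by gene and function by function. The 3 S3 libraries and the 3 S0-Low libraries were taken by their sample labels, 6 of the 18 libraries in the deposited count table, and all 16555 genes that passed a filter on low counts were tested. Fetal livers came from C57BL/6 embryos of e12.5-e13.5, and live lineage-negative cells were sorted by CD71, the transferrin receptor, and Ter119, a surface antigen of maturing red cells. S0-Low cells were sorted as negative for Ter119, with CD71 called low in the sample titles and negative in the marker labels, whereas S3 cells were sorted as high for both. The study describes S0-Low as a mixture of haematopoietic stem and progenitor cells and burst-forming erythroid units, and S3 as terminally differentiating cells. Cells of both populations were rested for 6 h after sorting and cultured for 45 min with 500 µM 4-thiouridine (4sU). This uridine analogue enters RNA as it is transcribed, so that RNA made in that window could be coupled to biotin, pulled down and sequenced (4sU-seq).

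Red cells form when progenitors commit to the erythroid lineage, divide several times and fill with haemoglobin, after which the nucleus is expelled and the mitochondria and ribosomes are cleared. Haemoglobin needs globin chains, haem and iron in step with each other, and the cell surface is rebuilt on a spectrin skeleton. Stem and progenitor cells instead carry transcription factors, adhesion molecules and signalling proteins that they share with white blood cells.

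The 6 libraries held between 9452476 and 35264717 counts in S0-Low and between 17978747 and 32762197 in S3. S0-Low replicate 3 was the shallowest of the 6. The 20 most abundant genes took 6.5% to 7.3% of the counts in S0-Low and 11.3% to 13% in S3. The sorted labels held against the marker genes of each population. Alas2, the first enzyme of haem synthesis in erythroid cells, had 122, 146 and 167 normalized counts in the S0-Low libraries and 78736, 108631 and 123166 in S3. Sox4, a transcription factor of progenitors, had 3891, 2910 and 4942 normalized counts in S0-Low and 0, 1.37 and 0 in S3. Normalized counts are counts scaled to a common effective library size, so they can be compared between libraries for 1 gene but not between genes of different length. The study calls its replicates biological, but no source says whether they came from separate pools of embryos, so p-values measure the spread between these libraries.

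At an adjusted p under 0.05 (Benjamini-Hochberg) in edgeR's quasi-likelihood test, 2220 genes were higher in S3 (13.4% of those tested) and 3712 were lower (22.4%). Over all tested genes the median of the log2 fold change was -0.54 with TMM scaling (trimmed mean of M values), and -1.36 when libraries were scaled by their totals, which turned the split to 1156 higher and 6228 lower. Among the 6918 well-measured genes, those whose counts were 50 or more in all 6 libraries, 1765 were higher, 738 were lower and the median was 0.25. Asking 50 counts of every S3 library leaves out genes near 0 there. Splits among the well-measured members of a list are therefore to be set beside these counts. Of the genes that fell, 1680 had at most 3 counts in every S3 library, whereas 144 of those that rose had at most 3 in every S0-Low library. The functions behind these shares were read from 41 lists of genes by role. In bulk libraries, fewer cells of a type and less RNA per cell of that type cannot be told apart, which holds for every list below.

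**Figure D1:**
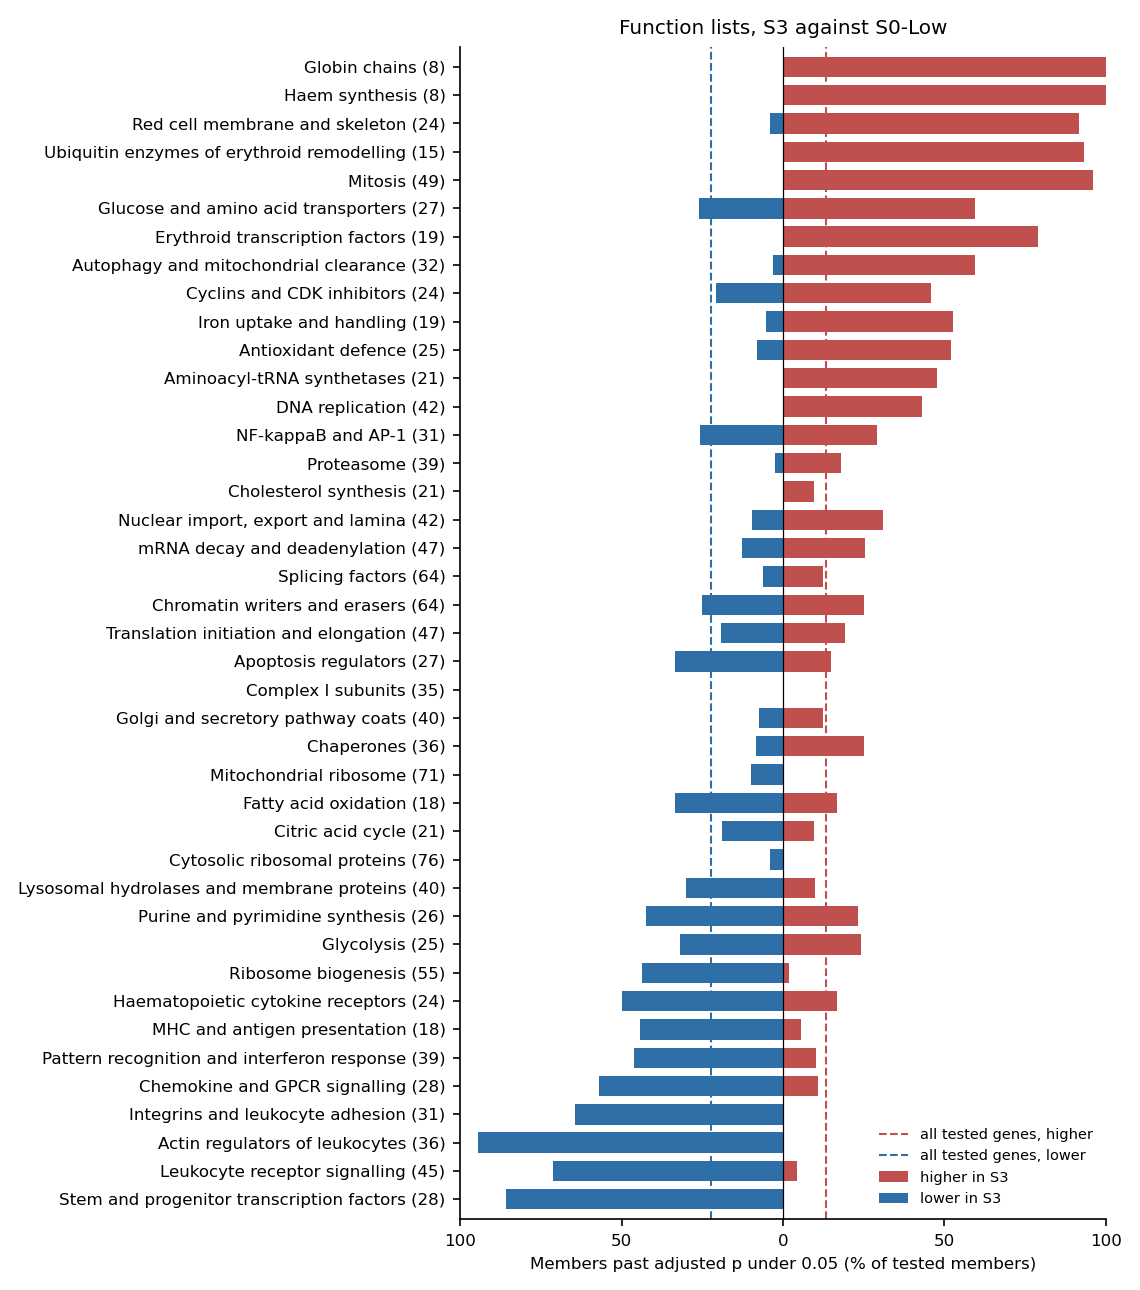
Share of the tested members of each function list that passed an adjusted p under 0.05 by edgeR, higher in S3 to the right and lower to the left, with the number of tested members in parentheses and lists ordered by their median log2 fold change. Dashed lines give the share over all tested genes, 13.4% higher and 22.4% lower: globin, haem, membrane, ubiquitin and mitosis lists lie far to the right, and stem cell factors and actin regulators of leukocytes far to the left.

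All 8 enzymes of haem synthesis rose, with a median log2 fold change of 4.63 and a range from 3.65 to 9.49. The first step, carried out by Alas2 (chrX:150547417-150570622, GRCm38.p6), rose most, by 9.49 on the log2 scale (standard error 0.64, adjusted p = 4.8e-07). Fech, which inserts iron into the porphyrin ring, had 2690, 2707 and 3844 in S0-Low and 81987, 103612 and 107354 in S3 (log2 fold change 4.99, standard error 0.42, adjusted p = 1.7e-06). For both of these enzymes the lowest S3 library lay far above the highest S0-Low library. The smallest change was that of Cpox, the coproporphyrinogen oxidase, which already stood at 5484 to 9364 normalized counts in S0-Low and reached 82223 to 97251 in S3. The count of 8 held with each library left out in turn and under every scaling.

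All 8 tested globin genes passed as well, with a median of 9.19 on the log2 scale, or 8.25 when the 4 genes with at most 3 counts in every S0-Low library were set to a lower bound. Near-identical globin copies share reads, so their separate values are uncertain. The embryonic chains were also read in S3: Hbb-bh1 had 0 in all 3 S0-Low libraries and 863, 1210 and 1781 normalized counts in S3, and Hbb-y had 0, 2.27 and 0 against 2290, 797 and 3237. Hbb-bh2 was the exception in that its groups overlapped, at 0, 0.757 and 0 against 0, 84.9 and 246, and its log2 fold change of 7.99 did not pass without S0-Low replicate 1 (7.44), S0-Low replicate 2 (9.77) or S3 replicate 3 (6.61). Globin genes together made up 0.778% to 1.03% of the counts in S3 and 0.00144% to 0.00854% in S0-Low, and leaving them out of the table left 2216 higher and 3711 lower genes.

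Among 19 genes of iron uptake and handling, 10 rose and 1 fell. Slc25a37, which carries iron into the mitochondrion, and Abcb10, a transporter of the inner mitochondrial membrane that stabilises it, rose by log2 fold changes of 6.89 (standard error 0.66) and 5.52 (standard error 0.67). Fth1, the heavy chain of the iron store ferritin, had 7374, 9537 and 7134 normalized counts in S0-Low and 34173, 47653 and 47401 in S3 (adjusted p = 5.1e-05, chosen after its values were seen). Tfrc encodes the receptor on which the cells were sorted, so its rise of 4.19 on the log2 scale is no independent result. The count of rises fell to 7 with scaling by library totals, with 3 falls.

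The red cell membrane and its skeleton gave 22 rises and 1 fall among 24 genes, with a median log2 fold change of 4.18. Epb42, which ties the anion exchanger to the skeleton, had 147, 247 and 621 normalized counts in S0-Low and 49473, 67089 and 91334 in S3 (log2 fold change 7.69, standard error 0.92, adjusted p = 2.8e-05). Dmtn, an actin-bundling protein of the skeleton, rose from 183, 344 and 525 to 58060, 79976 and 129853, and Slc4a1, the anion exchanger itself, rose by 10.05 on the log2 scale (standard error 0.92). Spectrin beta (Sptb) already had 7599, 9121 and 6864 normalized counts in S0-Low and rose to 229288, 289145 and 336741 (adjusted p = 4.8e-07, chosen after its values were seen). The S3 and S0-Low values of these 4 genes did not overlap. The single fall was that of Tpm3, a tropomyosin found in many cell types, with 11878, 9045 and 4980 normalized counts in S0-Low and 3322, 3836 and 3157 in S3. Tpm3 passed at an adjusted p of 0.0293 with a log2 fold change of -1.33, and did not pass without S0-Low replicate 1 (-1.09), S0-Low replicate 2 (-1.36), S3 replicate 1 (-1.32), S3 replicate 2 (-1.41) or S3 replicate 3 (-1.28). Between 21 and 22 rises were called with each library left out.

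The promoters of genes on the haem, globin, iron and membrane lists were searched for the core GATA motif, AGATAA on either strand, which erythroid GATA factors bind. In windows of 300 bases around the RefSeq start, 2 of 6 haem enzymes (33.3%) and 6 of 17 membrane genes (35.3%) with a window held it, as did 1 of 5 globin genes (20%) and 2 of 14 iron genes (14.3%), against 8.21% of all 10744 tested genes with a window and 11.2% of all 32851 windows of the same length. The share was also above that of all tested genes in lists that are not of the red cell, such as glycolysis (20%), chemokine and G-protein-coupled receptor genes (19%) and purine and pyrimidine synthesis (17.4%). Over all genes the share hardly moved with the change in nascent RNA, at 8.77% of the genes that rose and 8.4% of those that fell. Among the membrane genes with the motif was Tpm3, the one that fell. The windows shown belong to an enzyme of haem synthesis, a membrane protein, an enzyme of glycolysis and an inhibitor of apoptosis, genes that all rose and whose window holds the motif, and they are read on the strand of the gene from 5′ to 3′ with the motif in capitals. Where the motif lies on the opposite strand it reads TTATCT.
Alas2, chrX:150547291-150547376, plus strand: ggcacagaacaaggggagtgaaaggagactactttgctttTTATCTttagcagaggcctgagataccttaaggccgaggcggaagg
Epb42, chr2:121037058-121037127, minus strand: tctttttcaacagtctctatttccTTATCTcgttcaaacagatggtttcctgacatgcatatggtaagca
Pklr, chr3:89136067-89136141, plus strand: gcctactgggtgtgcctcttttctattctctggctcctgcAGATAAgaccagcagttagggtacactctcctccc
Bcl2l1, chr2:152828490-152828570, minus strand: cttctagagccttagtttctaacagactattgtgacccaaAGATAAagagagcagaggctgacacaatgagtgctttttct
The windows and coordinates are those of RefSeq on GRCm38.p6. The KLF motif CCACACCC, searched likewise, was in 0 of the haem and membrane windows, 4.6% of the windows of genes that rose and 4.78% of those that fell, against 4.39% of all tested genes with a window and 3.56% of all windows. A match describes the letters of the window and was not tested as a binding site.

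**Figure D2:**
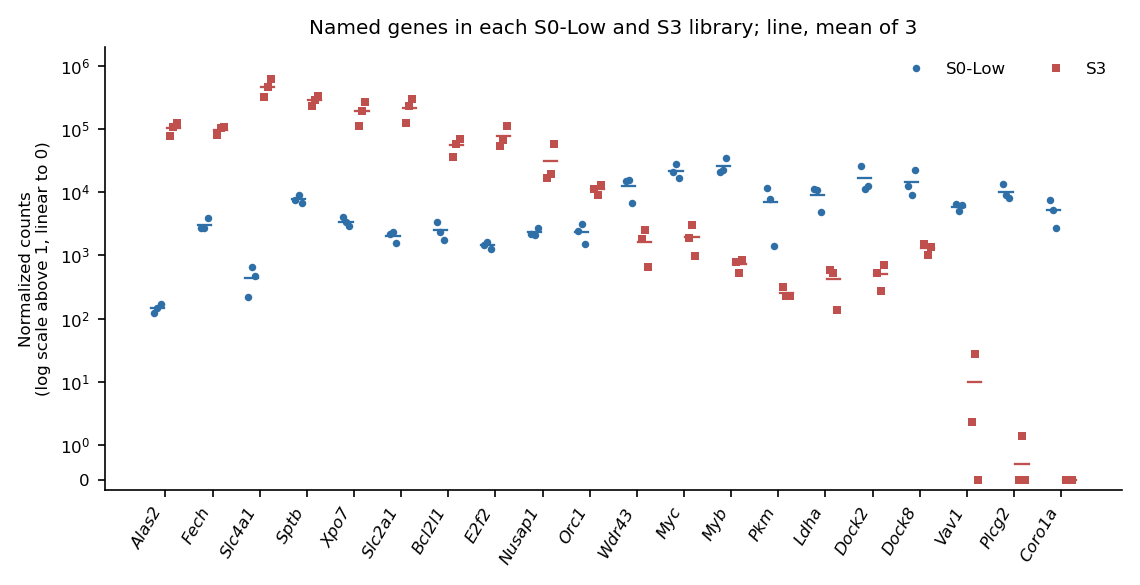
Normalized counts of named genes in each S0-Low library (circles) and each S3 library (squares), on an axis that is logarithmic above 1 and linear below, with short lines for the mean of 3 libraries. From Alas2 to Orc1 every S3 library lies above every S0-Low library, from Wdr43 onward every S3 library lies below, and Coro1a is at 0 in all 3 S3 libraries.

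Erythroid transcription factors gave 15 rises and 0 falls among 19 genes, a smaller shift with a median of 1.93. Tal1, Klf1 and Gata1, core regulators of the lineage, were already transcribed in S0-Low. Gata1 had 2585, 3685 and 6649 normalized counts there and 9975, 19493 and 15355 in S3 (log2 fold change 1.80, standard error 0.41, adjusted p = 0.00392, chosen after its values were seen), and with library totals its adjusted p was 0.0943. Foxo3, a forkhead factor of late red cell maturation, had 9789, 6981 and 18885 normalized counts in S0-Low and 112750, 103847 and 110188 in S3 (log2 fold change 3.20, standard error 0.48, adjusted p = 0.00017). E2f2, an E2F factor needed for the last divisions of erythroblasts, rose further, from 1449, 1631 and 1278 to 54426, 66070 and 111423 (log2 fold change 5.73, standard error 0.63). Library totals in place of TMM left 10 rises and 1 fall.

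Ubiquitin enzymes and autophagy genes rose to different degrees. Of 15 ubiquitin enzymes known from red cell remodelling, 14 rose and 0 fell, with a median of 3.89. Ube2o, a ubiquitin ligase that removes ribosomes in reticulocytes, had 2469, 1822 and 2437 normalized counts in S0-Low and 44192, 85904 and 137778 in S3 (log2 fold change 5.32, standard error 0.45, adjusted p = 1.9e-06). Ube2h, a conjugating enzyme, rose by a log2 fold change of 5.47 (standard error 0.66), with 1148, 673 and 2073 against 44352, 57824 and 70497. The same number, 14, rose with each library left out. Autophagy and mitochondrial clearance gave 19 rises and 1 fall of 32, but the rises numbered 10 without S0-Low replicate 1, without S0-Low replicate 2 or without S3 replicate 3, and library totals gave 10 rises and 3 falls. In that list Ulk1, a kinase that starts autophagy, had 1117, 1154 and 3114 normalized counts in S0-Low and 9874, 15275 and 21936 in S3 (log2 fold change 3.13, standard error 0.64).

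Antioxidant genes had 13 rises and 2 falls of 25. The falls came to 1 without S0-Low replicate 1 or 2, and library totals gave 12 rises and 6 falls. Prdx2, the abundant peroxiredoxin of red cells, had 2746, 3145 and 4470 normalized counts in S0-Low and 39252, 55071 and 54254 in S3 (chosen after its values were seen). Gss, glutathione synthetase, rose from 647, 711 and 442 to 8106, 10616 and 7848 (log2 fold change 3.88, standard error 0.30, adjusted p = 1.2e-06). Prdx6, a peroxiredoxin of another class, fell by 1.73 on the log2 scale (standard error 0.43, adjusted p = 0.00638), with 4666, 5464 and 5402 against 1409, 2434 and 832. The groups did not overlap for any of these 3 genes.

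Of 49 mitosis genes 47 rose and 0 fell, with a median of 2.08. Between 41 and 47 rose with each library left out, and 36 rose with library totals. Nusap1, a protein of the spindle microtubules, had 2212, 2123 and 2712 normalized counts in S0-Low and 16938, 19390 and 59021 in S3 (log2 fold change 3.76, standard error 0.74, adjusted p = 0.00129). Cit, a kinase of the final cut between daughter cells, had 8273, 7160 and 8589 in S0-Low and 57349, 82951 and 88580 in S3 (log2 fold change 3.25, standard error 0.35, adjusted p = 1.3e-05). DNA replication genes gave 18 rises and 0 falls of 42, with a smaller median of 0.65, and with scaling by library totals this list turned to a median of -0.17 with 4 rises and 6 falls. Orc1, the largest subunit of the complex that marks replication origins, had 2447, 3132 and 1525 normalized counts in S0-Low and 11446, 8922 and 13136 in S3 (log2 fold change 2.24, standard error 0.32, adjusted p = 0.000112).

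Cyclins and inhibitors of their kinases had 11 rises and 5 falls of 24. Of the D cyclins, which start the cycle, Ccnd3 rose from 7181, 5928 and 7013 to 18631, 32244 and 27680 normalized counts, whereas Ccnd2 fell from 7770, 7785 and 1932 to 213, 455 and 0 (both chosen after their values were seen). Both calls were near the threshold: Ccnd3, at a log2 fold change of 1.96 and an adjusted p of 0.0234, had an adjusted p between 0.0574 and 0.0798 without S3 replicate 2 or any 1 S0-Low library and 0.139 with library totals, and Ccnd2, at -4.71 and 0.0379, one between 0.0668 and 0.0962 without S0-Low replicate 1 or 2 or S3 replicate 1 or 3. Cdk6, the kinase that D cyclins bind, fell from 24549, 16608 and 22368 to 57.4, 296 and 0 (log2 fold change -7.47, standard error 1.38), and the inhibitor Cdkn2c rose from 6.28, 34.1 and 0 to 4749, 5946 and 10112 (log2 fold change 8.84, standard error 1.25). These 2 genes were also chosen after their values were seen. E2f3 fell by 1.37 on the log2 scale (standard error 0.43, adjusted p = 0.0236) where E2f2 and E2f7 rose, and E2f3 did not pass without S0-Low replicate 1 (-1.03), S3 replicate 2 (-1.37) or S3 replicate 3 (-1.19). The 5 falls became 3 without S0-Low replicate 1 or S3 replicate 3, and library totals gave 8 rises and 9 falls.

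Glycolysis had 6 rises (24%) and 8 falls (32%) of 25, against 13.4% and 22.4% over all genes. With library totals it had 3 rises and 13 falls. Pklr, the red cell and liver pyruvate kinase (chr3:89136122-89146815), had 2301, 2864 and 1970 normalized counts in S0-Low and 22681, 31739 and 4256 in S3 (log2 fold change 3.04, standard error 0.53, adjusted p = 0.000544). Pkm, the pyruvate kinase of proliferating and most other cells, had 11699, 7710 and 1392 in S0-Low and 310, 226 and 230 in S3 (log2 fold change -4.76, standard error 0.83, adjusted p = 0.000514). The groups did not overlap for either kinase, although S0-Low replicate 3 for Pkm and S3 replicate 3 for Pklr lay closest to the other population. Bpgm, which makes the 2,3-bisphosphoglycerate that lowers the oxygen affinity of haemoglobin, rose from 794, 867 and 1038 to 18306, 21633 and 45890 (log2 fold change 4.99, standard error 0.46), and Ldha, which turns pyruvate into lactate, fell from 11294, 10968 and 4892 to 578, 535 and 136 (log2 fold change -4.44, standard error 0.91). The 8 falls became 5 without S0-Low replicate 1 or S3 replicate 2.

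**Figure D3:**
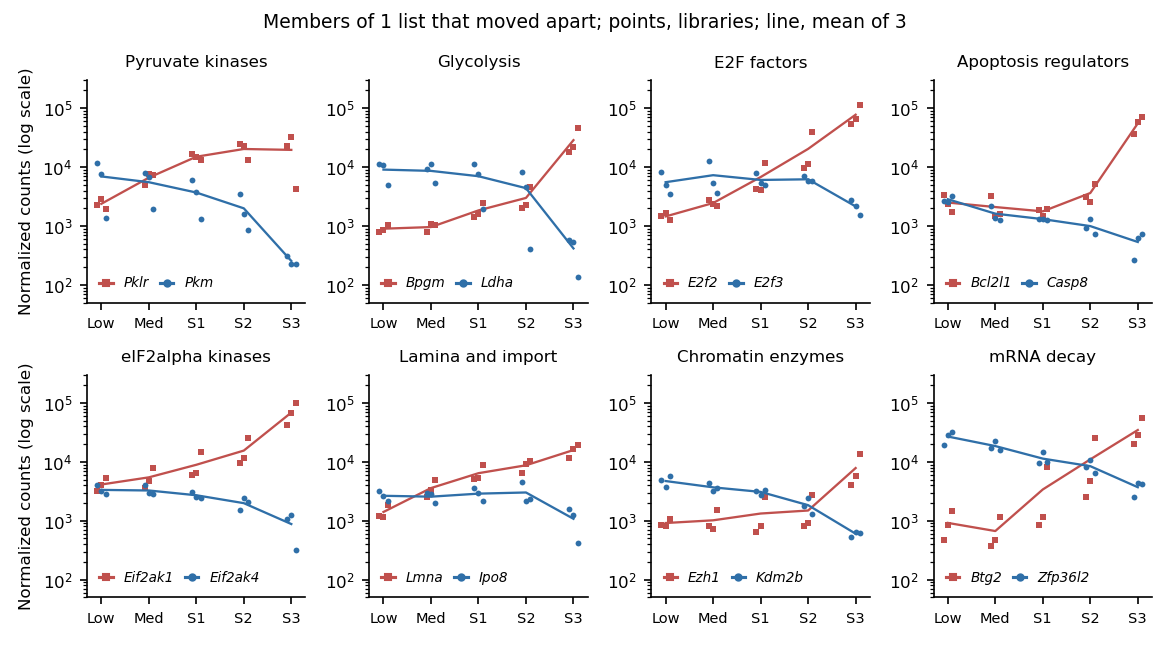
Normalized counts on a log axis of 8 pairs of genes from the same list across the populations S0-Low (Low), S0-Medium (Med), S1, S2 and S3, with a point for each of 3 libraries and a line through the means. In each panel the S3 level of the red gene is above its S0-Low level and that of the blue gene is below. The lines of Bpgm, Bcl2l1 and Ezh1 make most of their climb between S2 and S3.

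Lists of mitochondrial genes held few calls with TMM scaling and more falls with library totals. Of 35 nuclear genes for subunits of complex I, the first enzyme of the respiratory chain, 0 passed by edgeR in either direction, 1 rose and 1 fell at an unadjusted p under 0.05 and 3 fell by DESeq2, and their median was -0.13. With library totals 9 of them fell and 0 rose. Proteins of the mitochondrial ribosome gave 0 rises and 7 falls of 71, a share of 9.86% below that over all genes. DESeq2 gave 2 rises and 20 falls there, and the 7 falls became 3 without S0-Low replicate 2 or S3 replicate 3, 4 without S0-Low replicate 1 and 16 without S3 replicate 2. With library totals 38 of the 71 fell and 0 rose. The citric acid cycle had 2 rises (9.52%) and 4 falls (19%) of 21, both under the 13.4% and 22.4% over all genes. With library totals it had 1 rise and 12 falls. In that list Ogdh, the core of the 2-oxoglutarate dehydrogenase whose product feeds haem synthesis, rose from 5905, 5240 and 4462 to 21401, 18429 and 21102 normalized counts (log2 fold change 1.96, standard error 0.29, adjusted p = 0.000152). Suclg1, which takes the same product, succinyl-CoA, onward along the cycle, fell from 2725, 2752 and 3321 to 587, 961 and 330 (log2 fold change -2.23, standard error 0.41, adjusted p = 0.000753). Neither gene overlapped between the groups.

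Genes for building ribosomes fell more often than they rose, and genes for charging tRNA rose more often than they fell with TMM scaling. Of 55 ribosome biogenesis genes 24 fell (43.6%) and 1 rose, with a median of -1.85. Wdr43, a factor of the small subunit processome, had 14922, 15820 and 6697 normalized counts in S0-Low and 1838, 2485 and 645 in S3 (log2 fold change -2.91, standard error 0.66, adjusted p = 0.00338). The riser was Ubtf, an activator of RNA polymerase I, with 11650, 11269 and 4180 against 13671, 20010 and 47213. Ubtf passed at an adjusted p of 0.0142 with a log2 fold change of 1.58, and did not pass without S0-Low replicate 3 (1.20), without S3 replicate 3 (0.88), with library totals (0.69) or with the 6 libraries fitted alone (1.40). Of 21 aminoacyl-tRNA synthetases 10 rose and 0 fell with a median of 0.97, whereas with library totals 6 rose and 4 fell with a median of 0.17. Aars, the alanine enzyme, had 8582, 7010 and 1606 in S0-Low and 30130, 34959 and 50680 in S3 (log2 fold change 2.75, standard error 0.51, adjusted p = 0.000884). Proteins of the cytosolic ribosome gave 0 rises and 3 falls of 76 (3.95%), with a median of -0.69. The falls of that list numbered between 0 and 9 with a library left out, and 41 with scaling by library totals.

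**Figure D4:**
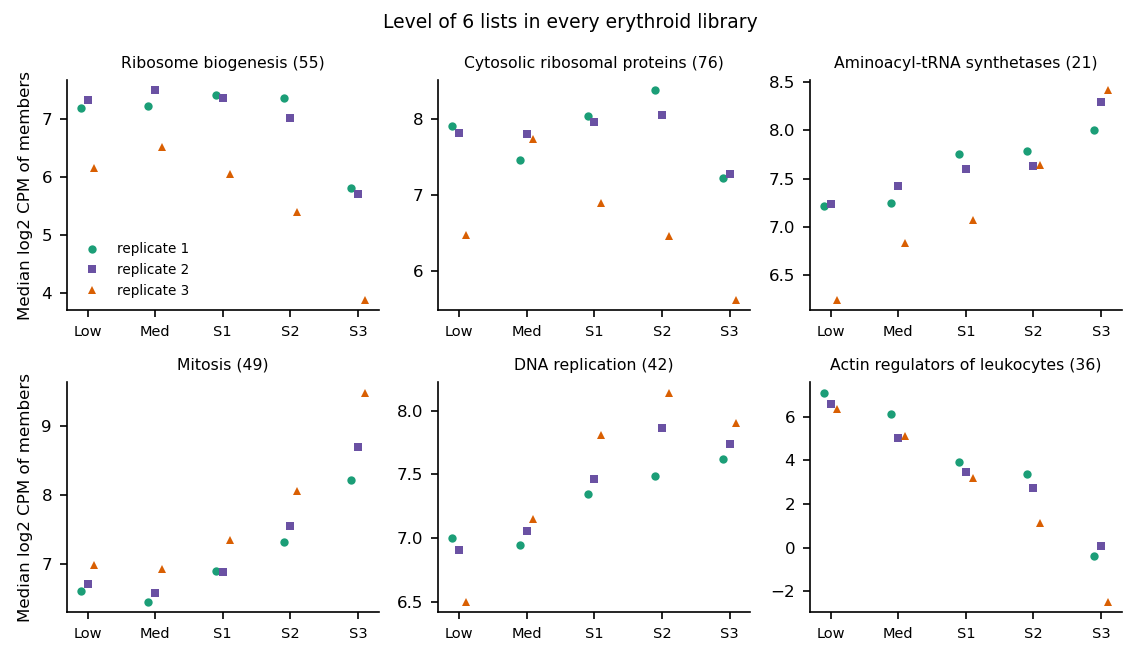
Median log2 CPM (counts scaled by library size) of the tested members of 6 lists in each of the 15 erythroid libraries, by population and replicate number. Ribosome biogenesis is lowest in replicate 3 of every population and mitosis is highest there, while S3 lies apart from S0-Low for both lists in all replicates.

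The ribosome lists varied between replicates as well as between populations. The median log2 CPM of ribosome biogenesis genes was 7.19, 7.34 and 6.17 in the S0-Low libraries and 5.82, 5.71 and 3.89 in S3, so the groups did not overlap, yet replicate 3 lay more than 1 unit under its partners in both. For cytosolic ribosomal proteins the values were 7.91, 7.82 and 6.47 against 7.22, 7.28 and 5.62, and here the groups overlapped, while at each replicate number S3 was the lower library. The falls among ribosome biogenesis genes numbered 9 without S3 replicate 3, 13 without S0-Low replicate 2 and 15 without S3 replicate 1. With library totals they numbered 48. With the replicate number as a block in the fit, 46 of the 55 ribosome biogenesis genes and 23 of the 76 cytosolic ribosomal protein genes fell, although no source says what a shared number stands for.

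Purine and pyrimidine synthesis had 6 rises (23.1%) and 11 falls (42.3%) of 26, or 4 rises and 18 falls with library totals. Among the 20 well measured 6 rose and 5 fell. Rrm2, which makes deoxyribonucleotides for DNA, rose from 6261, 8463 and 4265 to 38077, 68717 and 92730 normalized counts (log2 fold change 3.39, standard error 0.43, adjusted p = 4.4e-05). Mthfd2, a mitochondrial enzyme of the folate cycle, rose by a log2 fold change of 3.10 (standard error 0.46). Its cytosolic relative Mthfd1 had 8606, 7434 and 2397 in S0-Low and 1957, 2232 and 546 in S3 (log2 fold change -1.96, standard error 0.68, adjusted p = 0.0347). The call for Mthfd1 was lost without S0-Low replicate 1 (-1.71) or 2 (-1.87) and without S3 replicate 1 (-2.16) or 3 (-1.57), and the 11 falls of the list became 7 without S0-Low replicate 1 or S3 replicate 3.

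Translation factors had 9 rises and 9 falls of 47 (19.1% each), against 13.4% and 22.4% over all genes. Eif2ak1, the kinase that halts translation when haem is short, had 3157, 3988 and 5212 normalized counts in S0-Low and 41514, 66381 and 97636 in S3 (log2 fold change 4.06, standard error 0.52, adjusted p = 5.1e-05). Eif2ak4, the kinase of the same family that senses missing amino acids, fell from 3968, 3228 and 2816 to 1087, 1236 and 314 (log2 fold change -1.92, standard error 0.42, adjusted p = 0.00256). The 9 falls of the list came to 1 without S3 replicate 3 and to 5 without S0-Low replicate 1 or 2, and library totals gave 5 rises and 19 falls.

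Stress and chaperone genes had 9 rises (25%) and 3 falls (8.33%) of 36, against 13.4% and 22.4% over all genes. Dnajb2, a co-chaperone, rose from 188, 241 and 566 to 9296, 11829 and 9740 normalized counts (log2 fold change 4.96, standard error 0.65), and the inducible Hspa1b rose from 225, 205 and 295 to 6064, 6984 and 6825 (log2 fold change 4.78, standard error 1.16). Hspa1b has a near-identical neighbour, Hspa1a, so reads of the 2 genes may be shared. The 3 falls of the chaperone list came to 0 without S0-Low replicate 2, S3 replicate 1 or S3 replicate 3 and to 5 without S0-Low replicate 3, and library totals gave 6 rises and 15 falls. Among regulators of apoptosis, Bcl2l1, the survival protein of late erythroblasts, had 3420, 2352 and 1725 normalized counts in S0-Low and 36772, 58943 and 69693 in S3 (log2 fold change 4.46, standard error 0.44, adjusted p = 6.4e-06). Casp8, a caspase of death receptors, fell from 2695, 2602 and 3240 to 268, 619 and 719 (log2 fold change -2.41, standard error 0.42, adjusted p = 0.000491). The list as a whole had 4 rises (14.8%) and 9 falls (33.3%) of 27, and 4 rises and 2 falls among the 14 well measured. Its rises came to 1 without S0-Low replicate 1 or 2 and to 2 without S3 replicate 3. Library totals gave 1 rise and 12 falls.

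Transporters of glucose and amino acids gave 16 rises and 7 falls of 27. Slc2a1, the main glucose transporter of red cells, had 2155, 2378 and 1566 normalized counts in S0-Low and 126334, 228937 and 304327 in S3 (log2 fold change 6.76, standard error 0.58, adjusted p = 2.3e-06). Slc6a9, which brings in the glycine used by the first step of haem synthesis, rose from 293, 657 and 1642 to 33457, 40232 and 59951 (log2 fold change 5.69, standard error 0.78). Slc36a1, an amino acid transporter of the lysosome, fell from 895, 670 and 1636 to 195, 160 and 227 (log2 fold change -2.46, standard error 0.56, adjusted p = 0.00351). The 7 falls became 2 without S0-Low replicate 1, 3 without S3 replicate 3 and 4 without S3 replicate 1.

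Xpo7, an exporter needed for nuclear condensation in erythroblasts, had 4056, 3329 and 2884 normalized counts in S0-Low and 112307, 190597 and 269876 in S3 (log2 fold change 5.80, standard error 0.51, adjusted p = 2.6e-06), within a list of nuclear transport and lamina genes that had 13 rises (31%) and 4 falls (9.52%) of 42. With library totals that list had 4 rises and 14 falls, and its 4 falls came to 1 without S0-Low replicate 1 or S3 replicate 2 and to 2 without S0-Low replicate 2 or S3 replicate 3. Chromatin writers and erasers gave 16 rises and 16 falls of 64 (25% each, near the share of falls over all genes), or 7 and 27 with library totals. Among the 51 well measured 16 rose and 5 fell. Kdm7a, a histone demethylase, rose from 837, 591 and 2985 to 25280, 24823 and 38127 (log2 fold change 4.33, standard error 0.69), whereas Kdm2b, a demethylase that binds CpG islands, fell from 4834, 3665 and 5649 to 539, 656 and 612 (log2 fold change -2.97, standard error 0.32). Ezh1, a methyltransferase of Polycomb, rose from 838, 825 and 1081 to 4091, 5675 and 13743. Genes of mRNA decay had 12 rises and 6 falls of 47, with Btg2, which recruits deadenylases, at 464, 856 and 1437 against 20130, 28403 and 55316, and Zfp36l2, which marks AU-rich mRNAs for decay, at 19539, 28512 and 32510 against 2535, 4308 and 4277. The 12 rises came to between 5 and 7 when any 1 library other than S3 replicate 2 was left out, and 3 rises and 16 falls were called with library totals.

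Lists of genes shared with stem cells and white blood cells had many members near 0 in S3, so that a member could be tested through its S0-Low level alone. Of 28 stem and progenitor transcription factors 24 fell and 0 rose (85.7%), with a median of -7.19, or -6.31 when the 8 genes with at most 3 counts in every S3 library were set to their bound. Only 8 of the 28 were well measured, of which 5 fell, and their median was -1.28. Myb, a regulator of progenitor division, had 21079, 22490 and 34379 normalized counts in S0-Low and 794, 534 and 855 in S3 (log2 fold change -5.16, standard error 0.54, adjusted p = 1.2e-05). Myc, a driver of growth, fell from 20744, 27961 and 17014 to 1881, 3065 and 989 (log2 fold change -3.47, standard error 0.52, adjusted p = 0.000171). Fli1, a factor of megakaryocytes and stem cells, fell to 0, 19.2 and 0 from 9691, 5811 and 9018 (chosen after its values were seen). In each case the groups were far apart. When 10 counts were asked of each of the 6 libraries, which removes genes near 0 in S3, 9 falls were called of 11 tested.

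Actin regulators, by which white cells shape and move themselves, gave 34 falls and 0 rises of 36 (94.4%), with a median of -5.64. Dock2, an activator of Rac in blood cells, had 26344, 11406 and 12508 normalized counts in S0-Low and 530, 275 and 698 in S3 (log2 fold change -5.06, standard error 0.64, adjusted p = 4.4e-05). Dock8, its relative that activates Cdc42, fell from 12433, 9001 and 22150 to 1516, 1017 and 1369 (log2 fold change -3.48, standard error 0.43). Coro1a, an actin-binding protein of leukocytes, had 7542, 5227 and 2695 normalized counts in S0-Low and 0 in every S3 library, at least 953-fold lower by a floor of 3 counts per library. Vav1, a Rac activator beneath antigen receptors, fell from 6475, 4966 and 6382 to 2.29, 27.4 and 0 (chosen after its values were seen). Between 32 and 34 falls were called with each library left out, and 9 of 11 when 10 counts were asked of each of the 6. Of the 7 well-measured members 5 fell, with a median of -2.58.

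The promoters of this list were searched for GAGGAAGT on either strand, a motif of PU.1, the ETS factor of white cells. It was found in 7 of 31 windows (22.6%) against 3.57% of all tested genes with a window, 4.78% of those that fell, 2.3% of those that rose and 3.2% of all windows. The share was 14.7% of 34 windows for leukocyte receptor signalling, 15.8% of 19 for integrins and adhesion and 4.55% of 22 for stem and progenitor factors. It was also above that of all tested genes for the proteasome (9.09%), apoptosis regulators (8.7%) and ribosome biogenesis (8.51%), and the window of Aim2, which rose, held the motif. The windows of Fmnl1, a formin that grows actin filaments in leukocytes, and of Mapkapk2, a kinase of the p38 stress pathway and among the 15 largest well-measured falls, are shown on the strand of the gene, with the motif on the opposite strand in capitals.
Fmnl1, chr11:103171048-103171135, plus strand: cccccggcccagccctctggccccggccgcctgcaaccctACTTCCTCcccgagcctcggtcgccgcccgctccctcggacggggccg
Mapkapk2, chr1:131097893-131097980, minus strand: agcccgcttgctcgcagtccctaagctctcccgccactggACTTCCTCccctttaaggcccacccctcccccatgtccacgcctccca
Fmnl1 had 5368, 3959 and 4159 normalized counts in S0-Low and 0 in every S3 library, and Mapkapk2 had 4814, 3073 and 4144 against 234, 383 and 95.9. PU.1 itself, encoded by Spi1, had 2920, 2416 and 1614 normalized counts in S0-Low and 411, 42.4 and 276 in S3 (log2 fold change -3.26, standard error 1.14, adjusted p = 0.0367, chosen after its values were seen). Its adjusted p lay between 0.0655 and 0.0937 without S0-Low replicate 1 or 2 or S3 replicate 2 or 3.

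Leukocyte receptor signalling gave 32 falls and 2 rises of 45, and integrins and leukocyte adhesion 20 falls and 0 rises of 31. Most of these members entered the test through their S0-Low level. Of the 4 well-measured signalling genes 2 rose and 0 fell. Of the 7 well-measured integrin and adhesion genes 1 fell and 0 rose. Over all 6918 well-measured genes 1765 rose and 738 fell. When 10 counts were asked of each of the 6 libraries, 2 of 7 signalling genes rose and 2 fell, and 5 of 11 integrin and adhesion genes fell. Plcg2, the phospholipase beneath immune receptors, had 13538, 8943 and 8152 normalized counts in S0-Low and 0, 1.37 and 0 in S3. Wdfy4, a protein of antigen-presenting cells, had 13943, 7700 and 8440 against 0, 1.37 and 0. The risers of the signalling list were Grap2, an adaptor protein, with 473, 508 and 722 against 9718, 17074 and 32578 (log2 fold change 5.13, standard error 1.20, adjusted p = 0.0044), and the kinase Stk17b, with 1101, 1342 and 2914 against 5068, 8110 and 14959. Neither gene overlapped between the groups.

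Of 24 receptors for blood cytokines 12 fell and 4 rose, but among the 11 well-measured ones 2 fell and 4 rose, with a median of 0.79. Rises also outnumbered falls over all 6918 well-measured genes, at 1765 against 738. A turn toward rises among well-measured members is therefore not particular to the lists of this paragraph. When 10 counts were asked of each library, 3 of 12 fell and 4 rose. Epor, the receptor of erythropoietin, had 944, 1832 and 1619 normalized counts in S0-Low and 8395, 16308 and 21851 in S3 (log2 fold change 3.41, standard error 0.57, adjusted p = 0.000407), and Ifnar1, a chain of the interferon receptor, rose from 1839, 1863 and 3222 to 8753, 7876 and 13633. Kit, the receptor of stem cell factor, fell from 12487, 9744 and 22181 to 0, 79.4 and 0 (log2 fold change -9.02, standard error 1.27, chosen after its values were seen). Pattern recognition and interferon genes had 18 falls and 4 rises of 39, and 2 falls and 3 rises among the 9 well measured. When 10 counts were asked of each library, 2 of 12 fell and 3 rose. Aim2, a sensor of cytosolic DNA, was among the rises, with 1030, 965 and 1462 against 8941, 12460 and 13377 (log2 fold change 3.33, standard error 0.72, adjusted p = 0.00256). Among chemokine and G-protein-coupled receptor genes, with 16 falls and 3 rises of 28 and 3 falls and 2 rises among the 8 well measured, Arrb1, an arrestin that switches receptors off, rose from 6375, 5309 and 5089 to 35462, 50266 and 44366.

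Summed levels of marker genes of other cells were lower in S3 as well. The 15 macrophage and monocyte markers summed to 2180 to 4649 normalized counts in the S0-Low libraries and 4.59 to 142 in S3, where 10 were at 0 in every library, Csf1r among them. Of these 10, 5 (C1qa, C1qc, Timd4, Cd14 and Ms4a7) were also at 0 in every S0-Low library, and 3 of the 7 markers tested passed. The 13 neutrophil granule markers summed to 10374 to 24295 against 1.74 to 87.6, with Elane and Ctsg at 0 in S3. Most of the S0-Low sums came from Mpo alone, at 22457, 13090 and 9915. The 14 megakaryocyte markers summed to 11183 to 16203 against 2360 to 3950, although CD41 was in the panel of lineage antibodies. The 13 mast cell and basophil markers summed to 753 to 1657 against 2.29 to 105, the 11 B lymphoid markers to 648 to 1051 against 0 to 62.8, and the 13 T and NK markers to 386 to 442 against 0 to 223. The 12 hepatocyte markers summed to 359 to 390 against 0 to 11.5, and the 13 stromal and endothelial markers to 2380 to 5617 against 22.9 to 216. Markers such as Mpo and Itgb3 are also transcribed in progenitors. Lineage antibodies were directed at CD41, CD45R, CD3e, CD11b and Ly-6G/6C, a panel without a marker of mast, stromal or endothelial cells. The part of these cells in the falls of the stem, signalling, adhesion and innate immunity lists was not tested.

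Over all tested genes 13.4% were called higher and 22.4% lower, the shares to set beside the lists of this paragraph. Fatty acid oxidation had 3 rises (16.7%) and 6 falls (33.3%) of 18, or 0 and 8 with library totals. Among its 11 well-measured members 3 rose and 1 fell, where over all 6918 well-measured genes 1765 rose and 738 fell. Cholesterol synthesis had 2 rises (9.52%) and 0 falls of 21. The proteasome had 7 rises (17.9%) and 1 fall (2.56%) of 39, or 2 and 3 with library totals. Its activator Psme4 had 5329, 4207 and 6743 normalized counts in S0-Low against 19421, 19676 and 22250 in S3. Splicing factors had 8 rises and 4 falls of 64, and the rises came to 4 without S0-Low replicate 1 and 5 without S3 replicate 3, the falls to 2 without S0-Low replicate 1, S0-Low replicate 2 or S3 replicate 3. Golgi and secretory coats had 5 rises and 3 falls of 40, with 3 rises without S0-Low replicate 1 or 2 and 5 falls without S3 replicate 2. Library totals gave 3 rises and 24 falls of this list, and 0 rises and 25 falls of the splicing factors. The rises of the proteasome came to 4 without S3 replicate 2, and those of the lysosome to 2 without S0-Low replicate 1 or S3 replicate 3. Antigen presentation had 1 rise (5.56%) and 8 falls (44.4%) of 18. The list had 5 falls without S0-Low replicate 1, S3 replicate 2 or S3 replicate 3. Library totals gave it 0 rises and 13 falls, and 0 of its 4 well-measured members were called. Lysosomal genes had 4 rises (10%) and 12 falls (30%) of 40, and 4 rises and 2 falls among the 20 well measured. Among the rises Ctsb, a cysteine protease, had 1296, 1245 and 1389 normalized counts in S0-Low and 28279, 33367 and 39089 in S3 (log2 fold change 4.68, standard error 0.53, adjusted p = 1.8e-05). NF-kappaB and AP-1 genes had 9 rises (29%) and 8 falls (25.8%) of 31. Among the 15 well measured 6 rose and 1 fell, and library totals gave 6 rises and 10 falls of the list. Dusp1, a phosphatase that switches off stress kinases, rose from 226, 165 and 230 to 5963, 6395 and 14305 (log2 fold change 5.43, standard error 0.67). With library totals the medians of cholesterol synthesis, proteasome, splicing, and NF-kappaB and AP-1 genes turned from 0.40, 0.41, 0.11 and 0.62 to -0.34, -0.33, -0.71 and -0.21.

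The 15 largest rises and 15 largest falls among well-measured genes also held genes on none of the lists. Fhdc1, a formin, had 130, 188 and 232 normalized counts in S0-Low and 36531, 51038 and 112778 in S3 (log2 fold change 8.51, standard error 1.07). Tent5c, a poly(A) polymerase, rose from 433, 528 and 225 to 49932, 78013 and 106857 (log2 fold change 7.62, standard error 0.58), and Sox6, a repressor of embryonic globin, from 354, 510 and 1467 to 116247, 89328 and 120125 (log2 fold change 7.13, standard error 0.92). Mxd3, a partner of Max that opposes Myc, rose from 94.9, 87.8 and 131 to 4081, 12500 and 20958. Among the falls, Itpr1, a calcium channel of the endoplasmic reticulum, went from 12848, 7617 and 9465 to 278, 460 and 112 (log2 fold change -5.14, standard error 0.80), Spn, the leukocyte surface mucin CD43, from 7570, 8930 and 14425 to 369, 290 and 330 (log2 fold change -4.97, standard error 0.41), and Fnbp1, a membrane-bending protein, from 10634, 5281 and 8139 to 420, 400 and 502. For all of these genes S3 and S0-Low libraries did not overlap.

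Genes read in only 1 of the populations were uneven in number, with 27 switched on in S3 and 623 switched off, counted as at most 3 counts in each library of 1 population and at least 50 in each of the other. Among those switched on, Cdkl1, a cyclin-dependent kinase-like gene, was at 0 in the S0-Low libraries and at 1026, 1366 and 1420 normalized counts in S3, at least 312-fold higher, and Cacna2d3, a calcium channel subunit, had 0, 0 and 2.53 against 1624, 1550 and 523. Among those switched off were Tgfbr2, a receptor of TGF-beta, with 3138, 2543 and 8723 against 0, 0 and 3.49, and Slc24a3, a sodium-calcium exchanger, with 14242, 4602 and 4399 against 0, 2.74 and 0.

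The same lists were read in S2 and S0-Medium, 6 libraries that the comparison of S3 with S0-Low did not use, although they entered the same fit. There 210 genes were higher in S2 (1.27%) and 422 were lower (2.55%), with a median of -0.09. The higher genes numbered 28, 56 or 94 without S0-Medium replicate 1, 2 or 3 and 39 without S2 replicate 3, and the lower genes 142 without S0-Medium replicate 1 and 223, 263 or 152 without S2 replicate 1, 2 or 3. The median of haem synthesis was 2.04 with 5 rises, that of red cell membrane genes 1.72 with 14 rises and that of mitosis genes 0.98 with 6 rises. Stem and progenitor factors had a median of -4.33 with 16 falls, and actin regulators of leukocytes -3.38 with 16 falls. Several lists with calls in S3 against S0-Low had 0 calls there in either direction, among them ribosome biogenesis with a median of -0.28, autophagy with 0.54, tRNA synthetases with 0.46 and the mitochondrial ribosome with 0.11. In the ribosome biogenesis list Wdr43 stood at a log2 fold change of -0.59 (adjusted p = 0.733). Bcl2l1, with a log2 fold change of 0.79 (adjusted p = 0.289), and Pkm, with -1.47 (adjusted p = 0.292), also did not pass in that comparison. The difference between the comparisons was not tested.

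**Figure D5:**
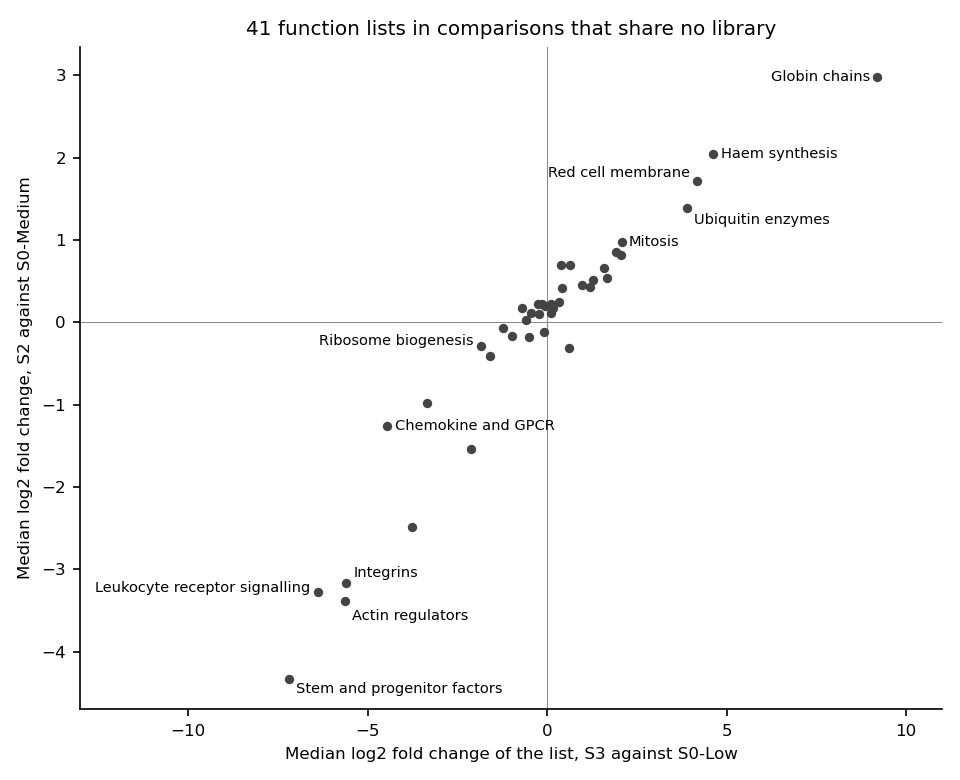
Median log2 fold change of each of 41 function lists in S3 against S0-Low (x axis) and in S2 against S0-Medium (y axis), comparisons that share no library. Globin, haem and membrane lists lie high on both axes and stem cell factors low on both, while ribosome biogenesis lies at -1.85 on the x axis and at -0.28 on the y axis.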

How the data were processed

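Nascent RNA of 5 erythroid populations, 3 libraries each, was used, and the 3 Lin+ libraries of the table were not used here. The authors deposited whole-number counts per gene, not normalized, from libraries made with a stranded total RNA kit and 14 cycles of PCR. The submitters' processing notes name Kallisto 0.43.0 and GRCm38, and the transcript set is not given in the sources used here. Kallisto divides reads between similar transcripts, so counts of near-identical genes are uncertain. Of 54232 identifiers 32651 had a symbol, and these held 98.7% of the counts. Functions were read from 41 lists and other cells from 8 marker lists, of which 1531 of 1546 entries matched an identifier. The comparison, the lists and the tests were chosen with earlier results of these data known.

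Counts of the 15 erythroid libraries were fitted in R 4.3.3 with edgeR 4.0.16 (filterByExpr, TMM factors, population as the only term, two-sided quasi-likelihood test, Benjamini-Hochberg adjustment over 16555 genes). The biological coefficient of variation, common to the genes, came to 0.795. Summaries used pandas 2.3.3 and numpy 2.4.6, and plots matplotlib 3.10.9, under Python 3.11.15. Lists were described by their counts and median, without a test of the list. The fit was first run on simulated data with fewer changed genes and a smaller spread than these data. That run therefore cannot speak for the error rate here. Alternatives were DESeq2 1.42.0, RLE factors, library totals, other filters, the 6 libraries alone, a replicate block, globin genes left out and each library left out.

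Genes were named by rule: in each list up to 3 members with the largest change in the main direction and up to 2 in the other, among those past the threshold whose counts were 50 or more in all 6 libraries. To these were added the 15 largest rises and 15 largest falls of the same kind that went the same way in all 3 same-numbered pairs, the 10 genes switched on and 10 switched off with the highest mean over the floor of 3 counts, markers of cell types, and every member of lists of 10 or fewer genes. Not every named gene is described, and genes outside the rule are said to be chosen after their values were seen. Results for 1 gene are not reported here.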

Additional observations from a re-analysis of the deposited data

How the results depend on the processing

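Log2 medians of lists are given here relative to the median of all tested genes in the same setting, which was -0.54 with TMM, -0.68 with RLE factors, -1.36 with library totals, -0.10 with 10 counts asked of each library and -0.08 with no filter. Haem synthesis, globin, membrane, ubiquitin and mitosis lists stayed above 0 and stem cell and actin lists below 0 in each setting run. With library totals 1156 genes were higher and 6228 lower in S3 (2220 and 3712 with TMM), 104 were higher in S2 than in S0-Medium, and Dlst, an enzyme of the citric acid cycle, went from 0.68 to -0.15. With the 6 libraries fitted alone the counts were 1404 and 2430 for S3 and 40 and 185 for S2, with medians of 1.52 for antioxidant and -1.26 for pattern recognition genes. DESeq2 gave 366 higher and 1310 lower genes in S2, and RLE factors gave 121 higher.

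The filter on low counts moved most medians. Asking 10 counts of each compared library leaves out genes near 0 in 1 population, and gave 1522 lower genes in S3, and 52 higher and 51 lower in S2. The medians turned sign for complex I (-0.31), the mitochondrial ribosome (-0.61), translation (-0.23), chaperones (-0.43), splicing (-0.01), cytokine receptors (0.02), leukocyte signalling (0.33), antigen presentation (0.20), pattern recognition (0.49), apoptosis (-0.14) and Golgi (-0.38). They moved to 4.44 for haem synthesis, 8.24 for globins, 1.27 for iron, 4.01 for membrane, 1.76 for erythroid factors, 3.57 for ubiquitin, 1.42 for antioxidants, -0.76 for the citric acid cycle, 0.81 for tRNA synthetases, 0.29 for the proteasome and 0.49 for DNA replication. The others were -2.45 for stem cell factors, -0.95 for integrins, -3.66 for actin, -0.65 for chemokines, 0.84 for NF-kappaB, 0.23 for chromatin, 0.02 for mRNA decay and 0.18 for nuclear transport. With no filter S2 had 470 higher and 867 lower genes, and medians turned sign for complex I (-0.12), apoptosis (-0.02) and Golgi (-0.23). The other medians that moved were 1.30 for iron, 4.19 for membrane, 1.20 for antioxidants, -0.57 for the citric acid cycle, 0.43 for the proteasome, 0.13 for splicing, 0.66 for DNA replication, 1.56 for cyclins, -4.10 for pattern recognition, 0.48 for NF-kappaB, 0.11 for chromatin, 0.18 for mRNA decay and 0.35 for nuclear transport. Beyond the genes a filter leaves out, the cause was not tested.

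With 1 library left out, 1558 to 2170 genes were higher and 2604 to 3837 lower in S3, and 28 to 215 higher and 142 to 402 lower in S2. The medians ran from 4.84 to 5.78 for haem synthesis, 1.59 to 2.41 for iron, 1.58 to 2.16 for antioxidants, 0.60 to 0.98 for splicing, 1.67 to 2.52 for cyclins, -2.29 to -1.18 for cytokine receptors, -5.25 to -3.06 for integrins and -5.28 to -3.50 for pattern recognition. They ran from 0.66 to 1.08 for NF-kappaB, 0.06 to 0.98 for apoptosis, 0.53 to 1.12 for chromatin, 0.63 to 1.15 for mRNA decay, 0.70 to 1.24 for nuclear transport and 0.20 to 0.71 for Golgi. Without S3 replicate 2 the median of all genes was -1.02. Of 192 named genes, 7 to 31 lost the call when 1 library was left out.

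Deviations from the population means were compared over all tested genes between libraries of 1 number. They correlated at 0.037, 0.106 and 0.059 for S3 and S0-Low and at 0.092, 0.219 and 0.204 for S2 and S0-Medium. The main fit did not use the numbers, but these correlations cannot show that a shared number has no effect. Ribosome biogenesis was lowest in replicate 3 of every population, and the largest rises and falls were named with the help of same-numbered pairs. With the replicate block S3 had 2640 higher and 4374 lower genes, S2 had 692 and 652, falls numbered 20 for the mitochondrial ribosome, 10 for chaperones, 8 each for the citric acid cycle, splicing and Golgi and 5 for antioxidants, rises 15 each for splicing and the proteasome, 7 for the lysosome, 4 for the citric acid cycle and 2 for antigen presentation, and the medians were -0.25 for glycolysis and -3.38 for integrins.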
